A study of Mus musculus with 8 samples.

Results

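Read counts were followed for 10 genes that encode regulators of alternative splicing, in livers of mice with and without a hepatocyte deletion of Rbfox2. The genes are the PTB family (Ptbp1, Ptbp2 and Ptbp3), the MBNL family (Mbnl1, Mbnl2 and Mbnl3), the CELF proteins Celf1 and Celf2, Qki and Esrp2. They were selected on their symbols, from the 46078 Ensembl identifiers of the count table, and Qki is listed as Qk in the annotation. Ptbp2 was chosen by its measured read counts, which were lower in the knockout, so its values by genotype are given as a description with no test. All 10 passed the filter on low counts, which left 14654 genes.

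All mice drank water with 30% (w/v) fructose for 22 weeks, from about 8 weeks of age. The 5 wild-type (WT) mice carried LoxP sites in both copies of Rbfox2 and no Cre, and the 3 Rbfox2 KO mice carried the same alleles with a Cre recombinase under the albumin promoter. The albumin promoter directs Cre to hepatocytes, so cells of other kinds in these livers can keep Rbfox2, and the deletion was not measured here cell type by cell type. Livers were taken after fasting, and the methods state that mice were male unless noted. Poly(A)-selected RNA was sequenced, with totals of 24829693 to 37823155 counts per sample.

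Splicing regulators bind short motifs in introns and exons and raise or lower the use of the exon nearby. PTB proteins bind pyrimidine-rich tracts and mostly repress exons, MBNL proteins favour exon choices of adult tissues, and CELF proteins bind GU-rich stretches and oppose MBNL at many exons. QKI binds ACUAAY motifs, and ESRP proteins keep epithelial exon choices, with ESRP2 known for the adult hepatocyte programme. Many of these proteins also act on the transcripts of their own family.

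The deleted gene was lower in every Rbfox2 KO liver. Rbfox2 was at 14.0, 20.5, 19.0, 17.9 and 23.2 CPM (reads scaled to library size with TMM factors) in WT 1 to 5 and at 6.84, 8.61 and 12.4 CPM in Rbfox2 KO 1 to 3. On the log2 scale Rbfox2 KO minus WT was -1.03 ± 0.21 (SE), which edgeR gave an adjusted p of 0.328. Counts per gene pool all exons, so they do not measure how far the gene was deleted. By western blot the authors could not detect RBFOX2 protein in livers of mice with this deletion. They assign most of its liver expression to hepatocytes. Hepatocyte marker genes summed to 78176 to 84537 CPM in WT and 68934 to 86522 CPM in Rbfox2 KO livers. Among the marker lists of other cell types, the pancreatic acinar list reached 463 CPM in Rbfox2 KO 1 and 17.2 CPM in WT 1 against 4.78 to 5.29 CPM in the other WT samples. The skeletal muscle list ran from 7.98 to 322 CPM in WT and from 1.14 to 196 CPM in Rbfox2 KO. Their part in the results that follow was not tested.

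Among these genes 1 library stood apart. WT 1 held the lowest WT level of 9 of the 10 regulators, and Celf2, lowest in WT 2, was the exception. WT 1 was the lowest WT sample for 30.6% of all tested genes, and for 44.0% of the 7571 whose longest transcript had at least 3000 bases, a class that includes all 10. Among the 7083 shorter genes the share was 16.3%. WT 5 showed the mirror pattern, being the lowest WT sample for 29.2% of all tested genes, 15.4% of the longer and 43.9% of the shorter ones, and for none of the 10 regulators. The median log2 difference of the 10 regulators from their WT median was -0.34 in WT 1 and between -0.07 and 0.04 in WT 2 to 5. This pattern was noticed after the values were seen, and values that move with WT 1 by over 1.5 times are also given without it.

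**Figure D1:**
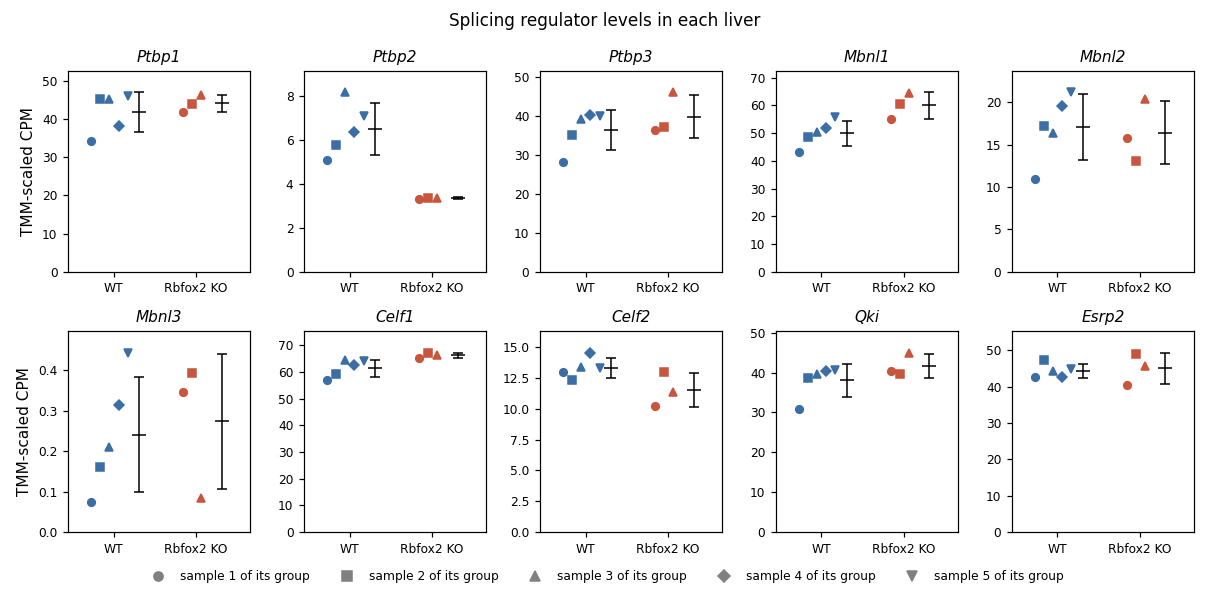
TMM-scaled CPM of the 10 regulators in each liver, with WT samples in blue and Rbfox2 KO samples in red. Marker shapes give the sample number within its group, and bars give the mean ± SD (n = 5 and n = 3). The 3 Rbfox2 KO samples lie below all WT samples for Ptbp2 and above all of them for Celf1, and WT 1 is the lowest WT sample for 9 of the 10 genes.

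Ptbp2 was the gene chosen for its difference. It encodes the PTB protein best known from neurons and testis, and it lies on chromosome 3 of the build GRCm38 (119718742 to 119784466, minus strand, ENSMUSG00000028134). WT 1 to 5 had 138, 179, 233, 182 and 240 reads, or 5.10, 5.79, 8.19, 6.36 and 7.10 CPM, and Rbfox2 KO 1 to 3 had 105, 86 and 121 reads, or 3.29, 3.38 and 3.38 CPM. All 3 Rbfox2 KO livers were below the lowest WT liver. The coefficient of variation (CV) was 1.53% in Rbfox2 KO and 18.4% in WT. With 3 samples of 86 to 121 reads, where counting error is large, the lower CV does not show that Ptbp2 varied less in the knockout. The means were 6.51 ± 1.19 CPM (SD, n = 5) and 3.35 ± 0.0512 CPM (SD, n = 3), so that Rbfox2 KO livers held 51.6% of the WT level. The log2 fold change was -0.96 ± 0.17 (SE), given without an interval or test, and it lay between -1.04 and -0.86 when any 1 sample was left out. Of all tested genes, 178 (1.21%) had a log2 fold change at or under that of Ptbp2, and 1.82% had Rbfox2 KO samples that were all below the WT samples. In bulk liver, fewer cells of a type and less RNA per cell cannot be told apart. The neural and Schwann cell marker list, which bears on a gene known from neurons, summed to 4.64 to 6.59 CPM in WT and 4.36 to 4.56 CPM in Rbfox2 KO, mostly from Syt1. Of its genes only Syt1 was lower in every Rbfox2 KO liver than in any WT liver (2.13 to 2.79 against 3.10 to 4.32 CPM). Gfap was higher in every Rbfox2 KO liver (0.336 to 0.659 against 0.140 to 0.323 CPM), and the groups overlapped for the others. The part of these markers in the Ptbp2 difference was not tested.

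Ptbp1 and Ptbp3 did not share that difference. Ptbp1 is the widely expressed PTB repressor, on chromosome 10 (79854427 to 79864771, plus strand, ENSMUSG00000006498). It was at 34.3, 45.2, 45.2, 38.2 and 46.0 CPM in WT 1 to 5 and at 41.9, 44.0 and 46.4 CPM in Rbfox2 KO 1 to 3. The groups overlapped, with a log2 fold change of 0.08 ± 0.11 (SE, 95% interval -0.17 to 0.33), or 0.0093 without WT 1 and 0.04 without Rbfox2 KO 3. The edgeR adjusted p was 0.99997 for Ptbp1, and the same for Ptbp3, Mbnl2, Mbnl3, Celf1, Celf2, Qki and Esrp2. Ptbp3, a paralogue first described in blood cells, lies on chromosome 4 (59471868 to 59549364, minus strand, ENSMUSG00000028382). It was at 28.0, 35.1, 39.1, 40.1 and 40.0 CPM in WT and at 36.3, 37.1 and 46.0 CPM in Rbfox2 KO. These groups overlapped too, with a log2 fold change of 0.13 ± 0.14 (SE, 95% interval -0.17 to 0.43), or 0.04 without WT 1 and 0.0092 without Rbfox2 KO 3. The intervals of both genes reach down to -0.17, and they leave room for rises of up to 0.33 and 0.43.

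Setting paralogues against each other within a library removes the scaling of that library. There were 6.74, 7.82, 5.52, 6 and 6.48 Ptbp1 reads per Ptbp2 read in WT 1 to 5, against 12.7, 13.0 and 13.7 in Rbfox2 KO 1 to 3. The means were 6.51 ± 0.868 (SD, n = 5) and 13.1 ± 0.499 (SD, n = 3). For Ptbp3 the WT ratio was 5.66 ± 0.588 (SD, n = 5) and the Rbfox2 KO ratio 11.9 ± 1.51 (SD, n = 3). Every Rbfox2 KO liver thus held more Ptbp1 and Ptbp3 reads per Ptbp2 read than any WT liver. Per kilobase of exon, Ptbp2 gave 4.91 ± 0.520% (SD, n = 5) of PTB family reads in WT livers and 2.45 ± 0.160% (SD, n = 3) in the Rbfox2 KO, Ptbp1 gave 61.3 ± 2.66% and 62.2 ± 1.89%, and Ptbp3 gave 33.8 ± 2.48% and 35.4 ± 2.05%. These ratios use the difference for which Ptbp2 was chosen and carry no test.

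The PTB genes share an exon whose use is controlled, in Ptbp1 and Ptbp2, by proteins of this family. Its sequence is shown because counts per gene do not tell transcripts with it from those without it. PTBP1 is known to promote skipping of this exon in Ptbp1 and Ptbp2, which shifts the reading frame. The exon has 34 bases, 1 more than a whole number of codons, and a 93-base exon follows it in all 3 genes. It lies at chr10:79862014-79862047 on the plus strand in Ptbp1 (exon 9 of 13), at chr3:119724612-119724645 on the minus strand in Ptbp2 (exon 10 of 14) and at chr4:59485339-59485372 on the minus strand in Ptbp3 (exon 10 of 14). The sequences below are coding, from the GENCODE M21 transcripts (GRCm38), 5′ to 3′, with the 34-base exon in capitals and 30 bases of the exons before and after it in lower case:
Ptbp1: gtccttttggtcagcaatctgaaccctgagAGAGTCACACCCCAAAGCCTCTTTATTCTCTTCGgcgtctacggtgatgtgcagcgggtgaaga
Ptbp2: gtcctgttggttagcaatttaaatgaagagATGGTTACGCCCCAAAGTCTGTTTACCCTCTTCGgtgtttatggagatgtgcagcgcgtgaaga
Ptbp3: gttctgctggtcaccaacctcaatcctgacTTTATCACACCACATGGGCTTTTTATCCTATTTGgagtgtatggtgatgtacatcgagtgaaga
The exons of Ptbp1 and Ptbp2 are identical at 26 of 34 positions (76.5%), those of Ptbp1 and Ptbp3 at 22 (64.7%), and those of Ptbp2 and Ptbp3 at 21 (61.8%). A transcript was counted as skipping the exon only if it joined the exons shown on either side directly, at the same splice sites. The annotation lists 2 such transcripts for Ptbp1 and 2 for Ptbp2, all of the nonsense-mediated decay class, in which an early stop codon marks the transcript for degradation. It lists none that skips the exon in this way for Ptbp3, for which 9 transcripts contain it. Of the 10 regulators, 5 (Ptbp1, Ptbp2, Ptbp3, Celf2 and Qki) have at least 1 annotated transcript of this class, against 28.1% of the 12695 tested protein-coding genes and 46.0% of the 5636 with 6 or more transcripts.

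Mbnl1 was the only one of the 9 regulators other than Ptbp2 with an unadjusted p under 0.05 in the fit of all 8 samples. It encodes the main MBNL protein of most adult tissues and lies on chromosome 3 (60472830 to 60629750, plus strand, ENSMUSG00000027763). WT 1 to 5 were at 43.3, 48.6, 50.2, 51.8 and 55.7 CPM, and Rbfox2 KO 1 to 3 were at 55.0, 60.6 and 64.4 CPM. The groups met at a single point, since Rbfox2 KO 1 was just below WT 5. The means were 49.9 ± 4.52 CPM (SD, n = 5) and 60.0 ± 4.73 CPM (SD, n = 3), with a log2 fold change of 0.27 ± 0.10 (SE, 95% interval 0.04 to 0.49). The unadjusted edgeR p was 0.0249, and the edgeR adjusted p over all tested genes was 0.954, so the difference did not pass the test. The DESeq2 adjusted p was 0.709. The log2 fold change was 0.21 both without WT 1 and without Rbfox2 KO 3. The unadjusted edgeR p was itself above 0.05 without WT 2 (0.0517), Rbfox2 KO 2 (0.0646) or Rbfox2 KO 3 (0.101).

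Mbnl2 and Mbnl3 varied more from mouse to mouse. Mbnl2, a paralogue prominent in brain, lies on chromosome 14 (120275669 to 120431697, plus strand, ENSMUSG00000022139) and was at 10.97, 17.2, 16.4, 19.6 and 21.2 CPM in WT 1 to 5, with the Rbfox2 KO livers at 15.8, 13.1 and 20.4 CPM. The Rbfox2 KO values all fell inside the WT range, with a log2 fold change of -0.06 ± 0.21 (SE, 95% interval -0.52 to 0.41). Its sign depended on single samples, with 0.08 without Rbfox2 KO 2, -0.19 without WT 1 and -0.25 without Rbfox2 KO 3. Mbnl3, an X-linked paralogue (chromosome X, 51117269 to 51206532, minus strand, ENSMUSG00000036109), had 2, 5, 6, 9 and 15 reads in WT 1 to 5, against 11, 10 and 3 reads in Rbfox2 KO 1 to 3. At these counts the log2 fold change was 0.12 ± 0.61 (SE, 95% interval -1.23 to 1.48), and it was -0.10 without WT 1 and 0.58 without Rbfox2 KO 3, so that neither a 2-fold rise nor a 2-fold fall lies outside the interval at this depth.

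Reads of Mbnl1 per Mbnl2 read were 3.95, 2.82, 3.06, 2.64 and 2.63 in WT 1 to 5, against 3.49, 4.64 and 3.15 in Rbfox2 KO 1 to 3. The high value of WT 1 came with its low Mbnl2 level, and it placed that WT liver above 2 of the 3 Rbfox2 KO livers. Per kilobase, Mbnl1 gave 65.2 ± 3.84% (SD, n = 5) of MBNL family reads in WT livers and 69.8 ± 3.81% (SD, n = 3) in the Rbfox2 KO, and Mbnl3 gave 0.636 ± 0.310% and 0.712 ± 0.458%.

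Mbnl1 and Mbnl2 also share an exon that MBNL proteins control in their own transcripts, known for its part in bringing the protein to the nucleus. Its 54 bases are a whole number of codons, so skipping keeps the reading frame, unlike the PTB exon. It lies at chr3:60614683-60614736 (plus strand) in Mbnl1 and at chr14:120395712-120395765 (plus strand) in Mbnl2, in each case exon 6 of 9 in the transcript shown. The sequences are from the same source, with the exon in capitals between 30 bases of its neighbouring exons:
Mbnl1: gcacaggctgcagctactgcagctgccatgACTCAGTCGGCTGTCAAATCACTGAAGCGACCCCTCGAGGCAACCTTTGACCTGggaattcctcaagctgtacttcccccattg
Mbnl2: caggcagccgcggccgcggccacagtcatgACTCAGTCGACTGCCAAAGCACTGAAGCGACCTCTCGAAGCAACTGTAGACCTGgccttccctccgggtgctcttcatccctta
The exons are identical at 46 of 54 positions (85.2%). Counted as for the PTB exon, 5 annotated transcripts contain it and 5 skip it for Mbnl1, and 3 and 3 for Mbnl2. The annotation has 25 transcripts of Mbnl1 and 10 of Mbnl2, so others fell in neither count. None of the skipping ones is of the nonsense-mediated decay class, and those of Mbnl1 include a retained intron transcript.

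Celf1 and Celf2 differed from each other in sign. Celf1, which binds GU-rich elements and also promotes mRNA decay, lies on chromosome 2 (90940382 to 91019497, plus strand, ENSMUSG00000005506). It was at 57.0, 59.1, 64.3, 62.5 and 64.0 CPM in WT and at 65.1, 67.1 and 66.3 CPM in Rbfox2 KO, every Rbfox2 KO sample being above every WT sample. The size was small, at 61.4 ± 3.20 CPM (SD, n = 5) against 66.2 ± 1.02 CPM (SD, n = 3), with a log2 fold change of 0.11 ± 0.08 (SE, 95% interval -0.07 to 0.29). Of all tested genes, 1.89% were separated in this way with Rbfox2 KO higher.

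Celf2, a paralogue known from brain, heart and T cells, lies on the same chromosome (6539694 to 7509563, minus strand, ENSMUSG00000002107). It was at 13.0, 12.3, 13.4, 14.5 and 13.3 CPM in WT 1 to 5 and at 10.2, 12.9 and 11.4 CPM in Rbfox2 KO 1 to 3. Rbfox2 KO 1 and 3 were below all WT samples, and Rbfox2 KO 2 was within them. The means were 13.3 ± 0.811 CPM (SD, n = 5) and 11.5 ± 1.38 CPM (SD, n = 3), or 86.4% of WT, with a log2 fold change of -0.21 ± 0.11 (SE, 95% interval -0.45 to 0.03). The unadjusted edgeR p was 0.0752. Single Rbfox2 KO samples moved the value, to -0.14 without Rbfox2 KO 1 and to -0.30 without Rbfox2 KO 2. The unadjusted edgeR p was then 0.254 and 0.0300, and the edgeR adjusted p without Rbfox2 KO 2 was 0.680. Lymphocyte markers, a list for cells known to express Celf2, summed to 2.56 to 13.8 CPM in WT and 2.04 to 3.98 CPM in Rbfox2 KO, and their part in the Celf2 values was not tested.

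Within each library there were 4.40, 4.798, 4.803, 4.30 and 4.81 Celf1 reads per Celf2 read in WT 1 to 5, against 6.38, 5.19 and 5.84 in Rbfox2 KO 1 to 3. The ratio was higher in all 3 Rbfox2 KO livers than in any WT liver, at 5.80 ± 0.599 (SD, n = 3) against 4.62 ± 0.251 (SD, n = 5). The share of Celf2 in the pair, per kilobase, was 6.91%, 6.37%, 6.36%, 7.05% and 6.35% in WT, against 4.86%, 5.92% and 5.29% in Rbfox2 KO. The genes were set against each other with results known, so the ratio is a description without a test. How many other gene pairs separate the groups in this way was not computed.

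**Figure D2:**
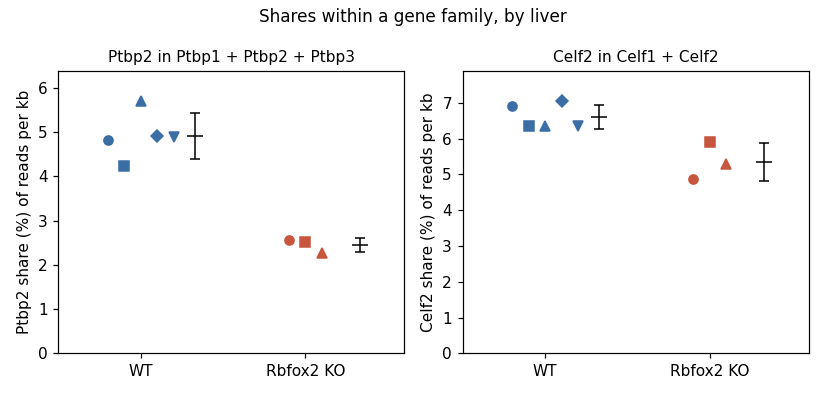
Share of Ptbp2 in the PTB family (left) and of Celf2 in Celf1 plus Celf2 (right), in percent of reads per kilobase of exon, for each WT (blue) and Rbfox2 KO (red) liver. Bars give the mean ± SD (n = 5 and n = 3). Ptbp2 averages 4.91% in WT and 2.45% in Rbfox2 KO, and Celf2 averages 6.61% and 5.36%. In neither panel do the groups overlap, and how many other gene pairs separate in this way was not computed.

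For Qki and Esrp2 the groups overlapped and no difference was called. Qki, a STAR-family protein known from myelination and circular RNA formation, lies on chromosome 17 (10202601 to 10319854, minus strand, ENSMUSG00000062078). It was at 30.9, 38.7, 39.6, 40.4 and 40.6 CPM in WT and at 40.3, 39.6 and 45.0 CPM in Rbfox2 KO. Apart from WT 1, the WT values lay within 38.7 to 40.6 CPM. The log2 fold change was 0.13 ± 0.11 (SE, 95% interval -0.11 to 0.37), and it was 0.06 without WT 1 and 0.07 without Rbfox2 KO 3. Esrp2, on chromosome 8 (106130319 to 106136974, minus strand, ENSMUSG00000084128), was at 42.7, 47.4, 44.3, 42.7 and 44.8 CPM in WT and at 40.4, 48.9 and 45.7 CPM in Rbfox2 KO. The WT values lay inside the Rbfox2 KO range, and the log2 fold change was 0.02 ± 0.09 (SE, 95% interval -0.18 to 0.22), or 0.00094 without WT 1.

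Of the 9 regulators other than Ptbp2, 7 had a log2 fold change above 0 and 2 below, from -0.21 to 0.27, with a median of 0.11 against 0.00095 over all tested genes. Without WT 1 the median was 0.0093 against 0.0044, with 6 above 0 and 3 below, and without Rbfox2 KO 3 it was 0.04 against 0.0017, so the median of 0.11 rested on single samples. At an adjusted p of 0.05, edgeR called 0 of the 9 and 0 of the 14654 tested genes (0%). At an unadjusted p under 0.05 there was 1 of 9 (Mbnl1) beside 694 of all tested genes (4.74%, of which 2.41% were higher and 2.33% lower in Rbfox2 KO). DESeq2 called 0 of the 9 and 59 of all tested genes (0.403%), and limma-voom called 0 of both. The groups did not overlap in 1 of the 9 (Celf1) and in 3.71% of all tested genes. Neither count can be read as a property of these 9 genes.

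**Figure D3:**
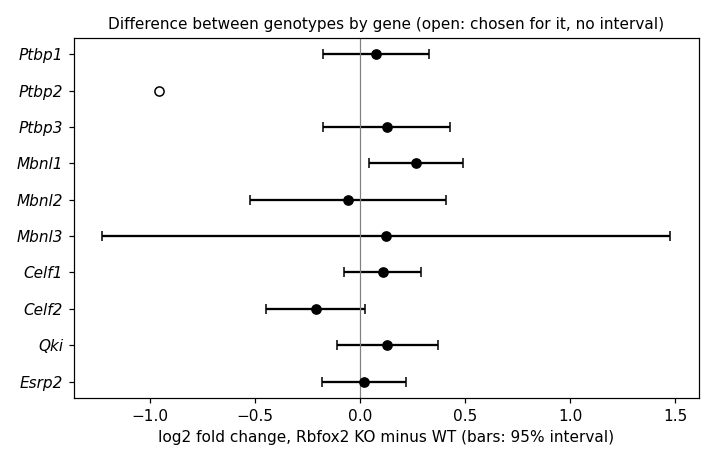
Log2 fold change (Rbfox2 KO minus WT) of each regulator with its 95% interval from the edgeR fit. Ptbp2, chosen for its difference, is an open symbol at -0.96 with no interval. The interval of Mbnl1 runs from 0.04 to 0.49 and those of the other 8 cross 0, with Mbnl3 widest at -1.23 to 1.48.

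Other genes of the same kind were set beside them from a list of 32 splicing regulators. The list has 20 genes that passed the filter, of which 9 were higher and 11 lower in Rbfox2 KO, with a median log2 fold change of -0.01. With edgeR 0 of the 20 passed, 2 had an unadjusted p under 0.05 (Rbfox2, lower, and Rbm4b, higher), and DESeq2 called 1 (Rbfox2). Rbm4b, an RNA-binding protein that regulates exon choice, was at 13.6, 12.7, 12.3, 10.9 and 12.3 CPM in WT 1 to 5, with the Rbfox2 KO livers at 15.1, 14.8 and 13.9 CPM. Its log2 fold change of 0.24 ± 0.10 (SE) had an adjusted p of 0.99997 by edgeR. All its Rbfox2 KO values were above all WT values, but 50.5% of its 50-base stretches also occur in other annotated genes, among them Rbm4, so that its count is uncertain. The paralogues of the deleted gene were scarce, with Rbfox1 at 4, 2, 2, 15 and 16 reads in WT 1 to 5 and 19, 0 and 0 in the Rbfox2 KO, and Rbfox3 at 0.559 to 0.905 CPM in WT and 0.783 to 0.826 CPM in Rbfox2 KO. Of the 12 genes that did not pass the filter, 8 had fewer than 3 reads in every sample, and 3 of those (Celf6, Khdrbs2 and Elavl4) had 0.

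The log2 fold change at the upper end of that list belonged to Srrm4, known for neuronal microexons and named after its values were seen. It was at 1.74, 1.10, 0.808, 0.559 and 1.66 CPM in WT and at 5.84, 0.944 and 1.71 CPM in Rbfox2 KO, with a log2 fold change of 1.27 ± 0.57 (SE). The level was above the WT range in Rbfox2 KO 1, the library with 463 CPM of pancreatic acinar markers, and inside it in the other two. Rbm24, a regulator known from muscle and likewise named after its values were seen, had 0, 0, 1, 7 and 21 reads in WT 1 to 5, against 31, 0 and 1 in Rbfox2 KO, and like Rbfox1 was high in the libraries with high skeletal muscle markers (227 CPM in WT 4, 322 CPM in WT 5 and 196 CPM in Rbfox2 KO 1). Rbfox2 KO 1 also had the highest TMM factor (1.29). By CPM, none of the 10 regulators was highest in Rbfox2 KO 1 among the Rbfox2 KO samples. Ptbp1, Ptbp2, Ptbp3, Mbnl1, Celf1, Celf2 and Esrp2 were lowest in it. The share of all tested genes that were lowest in it was not computed. Whether its acinar and muscle transcripts bear on these levels was not tested.

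**Figure D4:**
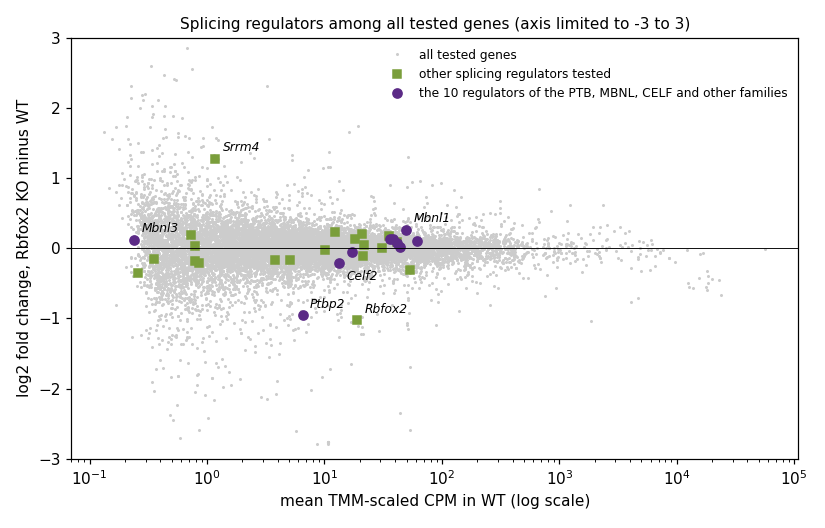
Log2 fold change (Rbfox2 KO minus WT) against mean WT level (TMM-scaled CPM, log axis) for all 14654 tested genes (grey), the 20 tested other regulators (green squares) and the 10 regulators (purple). The axis is limited to 3 in either direction, which leaves out 8 genes, and Ptbp2 lies near Rbfox2 at about -1 while the other purple points lie between -0.21 and 0.27.

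Across genes, levels were compared as RPKM, the TMM-scaled CPM per kilobase of all annotated exons of a gene. In WT livers Esrp2 was highest at 10.2 ± 0.449 RPKM (SD, n = 5), followed by Ptbp1 at 8.82 ± 1.11 and Celf1 at 7.27 ± 0.379 RPKM. Ptbp3 followed at 4.88 ± 0.687 RPKM, Qki and Mbnl1 at 2.67 ± 0.283 and 2.67 ± 0.242 RPKM, and Mbnl2 at 1.42 ± 0.326 RPKM. The lower end held Ptbp2 at 0.709 ± 0.130, Celf2 at 0.514 ± 0.0313 and Mbnl3 at 0.0276 ± 0.0163 RPKM. Neighbours whose WT ranges overlapped were Ptbp1 and Celf1, Qki and Mbnl1, and Ptbp2 and Celf2. Within every WT library, though, Ptbp1 was above Celf1 and Ptbp2 was above Celf2. Qki was above Mbnl1 in some WT libraries and below it in others, so that pair cannot be ordered. In Rbfox2 KO livers Celf2 (0.394 to 0.4998 RPKM) was above Ptbp2 (0.359 to 0.369 RPKM) in every sample. Per exon length, then, one family member led each family, Ptbp1, Mbnl1 and Celf1, and Esrp2 was measured almost without its paralogue, as Esrp1 had 0 to 4 reads per sample.

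The order depended on the length used. Divided by the longest annotated transcript of any class in place of all exons, Ptbp1 (13.2 RPKM) was above Esrp2 (12.5 RPKM), Mbnl1 (8.83 RPKM) was above Celf1 (7.82 RPKM), and 9 rather than 7 of the 10 genes reached 1 RPKM in WT. Which transcripts a liver made was not measured by these counts.

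**Figure D5:**
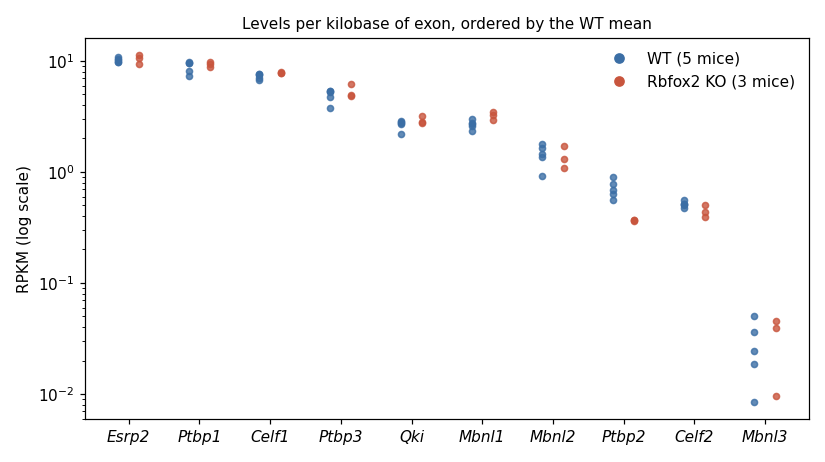
RPKM (log axis) of the 10 regulators in each WT (blue) and Rbfox2 KO (red) liver, ordered by the WT mean. Levels span from about 10 RPKM for Esrp2 to below 0.1 RPKM for Mbnl3, and the red points of Ptbp2 lie below its blue points and below the red points of Celf2.

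Mice of 1 genotype differed in these genes to unlike degrees. Over the 5 WT livers the CV was 4.39% for Esrp2, 5.21% for Celf1 and 6.10% for Celf2, which placed them at percentiles 2.95, 4.87 and 8.04 of all tested genes, whose median CV was 15.4%. Mbnl1, Qki, Ptbp1 and Ptbp3 had CVs of 9.06%, 10.6%, 12.5% and 14.1%. Ptbp2 and Mbnl2 were more variable, at 18.4% and 22.9%, and the highest Mbnl2 level was 1.93 times the lowest. Among the 2260 tested genes within 0.5 log2 units of its level, Mbnl2 lay at percentile 91.5. This rested on WT 1, without which its CV was 11.7%, its highest level 1.29 times its lowest, and its percentile among genes of like level 69.3. Mbnl3, with its few reads, had a CV of 59.3%. Without WT 1 the CV of Qki was 2.23%, that of Ptbp3 6.12% and that of Mbnl1 5.86%, while Esrp2 (4.36%), Celf1 (3.83%) and Celf2 (6.80%) moved less. The percentiles of Esrp2, Celf1 and Celf2 among all tested genes were then 7.32, 5.28 and 19.4. Among genes of like level these 3 genes lay at percentiles 8.42, 11.9 and 10.8 with all 5 WT livers. Without WT 1 those percentiles were 17.4, 11.3 and 28.6. The median CV of the 10 genes was 11.6%, and it was 6.46% without WT 1.

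Genes whose profile over the 8 samples was most like that of Ptbp2 were found by the Euclidean distance between log2 CPM values centred for each gene. The nearest were Tdrkh (distance 0.538), Ggcx (0.616), C330013E15Rik (0.616), Hmgcs1 (0.649) and Fam126a (0.709), against a median of 1.53 over all tested genes. Ggcx, the vitamin K-dependent carboxylase of clotting factors, was at 21.1 CPM in WT and 10.7 CPM in Rbfox2 KO on average. Hmgcs1, the HMG-CoA synthase of cholesterol synthesis, was at 139 and 75.0 CPM. Fam126a was at 9.83 and 5.27 CPM, Tdrkh at 2.07 and 1.21 CPM, and C330013E15Rik at 1.02 and 0.590 CPM. Rbfox2 itself ranked 17 at a distance of 0.769. Since Ptbp2 was chosen for its genotype difference, genes near it share that difference by construction.

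The motif TGCATG, which RBFOX proteins bind, was counted on the transcript strand of the longest protein-coding transcript of each gene. Mbnl1 held 5 copies in 5655 bases and Mbnl2 held 3 in 4552, densities at percentiles 94.1 and 88.0 of the tested genes. Qki held 4, Ptbp3 and Celf2 held 2 each, and Ptbp2, Mbnl3 and Celf1 held 1 each. Ptbp1 and Esrp2 held none. At least 1 copy occurs in 51.4% of 14598 tested genes and in 71.7% of the 6852 whose transcript has at least 3000 bases, so 8 of 10 is near what such long transcripts hold. Its core GCATG was in none of the 5 exon stretches shown above. These counts describe mature transcripts, and introns, where splicing regulators often bind, were not analysed here. The authors, who mapped RBFOX2 binding in mouse hepatocytes by cross-linking, name Ptbp2 as a direct target already known from earlier work. Where RBFOX2 binds in Ptbp2 was not examined here.

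Reads that could belong to 2 genes limit some values. In Ptbp1, 22.6% of the 50-base stretches occur in another annotated gene and 20.7% of exon bases overlap genes on the opposite strand, among them Plppr3. For Esrp2 the shares were 6.94% and 7.79% (Nfatc3 and 1810019D21Rik), and 7.58% of Celf2 exon bases lie opposite Gm26565. For Ptbp2, Mbnl1, Mbnl3 and Celf1 both shares were 0%. Whether counting used strand is not given in the sources used here.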

How the data were processed

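Poly(A)-selected liver RNA of 5 WT and 3 Rbfox2 KO mice was sequenced as paired-end libraries. The authors deposited raw read counts per Ensembl gene. Per the labels and methods, reads were demultiplexed with CASAVA (of which the labels and the methods give different versions), aligned to GRCm38 with TopHat2 2.0.11 as strand-specific and counted with featureCounts. The strand setting of the counting and its treatment of multi-mapping reads are not given in the sources used here. The authors name DESeq2 and edgeR-voom-limma without stating which served these samples.

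Groups and sample numbers came from the sample labels. Nothing in them says that samples with equal numbers share a litter or batch, and p-values measure the spread between these samples. Symbols, positions and lengths came from GENCODE M21 (GRCm38), in which 45143 of 46078 identifiers had a symbol, and 0 columns were left without a sample. Genes were filtered with filterByExpr, which left 14654, and scaled by TMM (factors 0.821 to 1.29). The effect of genotype was tested in R 4.3.3 with edgeR 4.0.16 (glmQLFit with robust = TRUE, glmQLFTest), two-sided, with Benjamini-Hochberg adjustment over all tested genes at 0.05. The SE was the log2 fold change over the square root of F. A level of 3 counts equals 0.0839 to 0.118 CPM, a floor that covers counting error only. No pair of samples in a group agreed within sampling noise (chi-square per degree of freedom 44.6 to 344). The procedure was tested on simulated data.

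The 10 genes and the lists of other regulators and cell type markers were chosen with earlier results of these data known. Named genes were the 10, Rbfox2, Rbfox1, Rbfox3, Esrp1, listed regulators with an unadjusted p under 0.05, and the 5 genes nearest to Ptbp2 in profile. Srrm4, Rbm24 and the listed regulators at 0 were named after their values were seen. Alternatives were DESeq2 1.42.0 (size factors, Wald test), library totals, no filter, limma-voom (limma 3.58.1), a replicate block, leaving out each sample, and transcript length. A planned count of TGCATG over whole gene bodies was replaced by one over transcripts, since no genome sequence was used here. Splicing was not measured, since counts per gene do not resolve exons.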

Additional observations from a re-analysis of the deposited data

Results flagged for a closer look

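Of 51 values examined for a WT sample set apart from the others by Dixon's ratio of gap to range, 2 passed the critical value of 0.71 for 5 samples, and chance alone gives about 1 in 20, or 2.55. The first was Qki (ratio 0.798), for which WT 1 was at 30.9 CPM and the other WT livers were at 38.7 to 40.6 CPM. The second was the summed pancreatic acinar markers (ratio 0.959), with 17.2 CPM in WT 1 and 4.78 to 5.29 CPM in the other WT livers. The same library held the lowest WT level of 9 of the 10 regulators. Whether these values are related was not tested.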

How the results depend on the processing

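None of the 9 regulators other than Ptbp2 passed an adjusted p of 0.05 under any of the 14 alternatives, and of their 126 log2 fold changes 118 kept their direction. The 8 that turned belonged to 3 genes. Mbnl2, at -0.06, was 0.0412 with library totals, 0.15 with the replicate block, 0.03 without WT 5 and -0.246 to 0.0822 over all samples left out (highest without Rbfox2 KO 2). Mbnl3, at 0.12, was 0.754 with the block, -0.10 without WT 1, -0.13 without Rbfox2 KO 1 and -0.21 to 0.582 over all samples left out (lowest without Rbfox2 KO 2). Esrp2, at 0.02, was -0.0435 to 0.0859 with 1 sample left out (lowest without Rbfox2 KO 2). Library totals moved the median of all genes to 0.12. Ptbp2 ran from -1.04 to -0.84 and Mbnl1 from 0.21 to 0.36. The count of all tested genes called, 0 with edgeR (694 at an unadjusted p under 0.05), was 6 with no filter (1036 unadjusted), 59 with the DESeq2 Wald test (722 unadjusted) and 0 to 1 when 1 sample was left out, the 1 without Rbfox2 KO 2 (518 to 941 unadjusted). Among the other regulators it was 0, except 1 (Rbfox2) with the DESeq2 Wald test. The median WT CV of the 10 genes, 11.6%, was 17.7% with library totals and 6.46% to 13.0% when 1 WT sample was left out, the lowest without WT 1. For the pairing, deviations of samples with equal numbers correlated at 0.05 to 0.17 and those of other pairs at -0.43 to 0.39, so the numbers were not taken to pair the mice, and with the block 0 regulators and 0 genes were called (739 unadjusted). With the length of the longest transcript, RPKM in WT moved by more than the spread between samples for 9 of the 10 genes. The causes of these shifts were not tested. Depth limits Mbnl3 (2 to 15 reads), and 3 Rbfox2 KO samples limit every comparison.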
